A study of Mus musculus with 11 samples.

Results

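The integrin and laminin genes of serum-starved mouse fibroblasts were followed across 4 genotypes. The members were all genes of the count table whose symbol names an integrin alpha, integrin beta or laminin alpha, beta or gamma chain, 37 of 21684 genes. They comprised 18 integrin alpha genes, 8 integrin beta genes and 11 laminin genes. Of these, 29 had enough counts to be tested, among 13332 tested genes in all. The other 8 were Itga4, Itgad, Itgal, Itgam, Itgax, Itgb6, Lama1 and Lamc3.

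RNA was sequenced from NIH/3T3 cells, an established mouse embryonic fibroblast line, after 24 h of serum starvation. Cells labelled WT (wild type) gave 2 libraries, and the lines labelled Xap5 KO, Nono KO and Sox5 KO gave 3 libraries each. Xap5 is the product of the mouse gene Fam50a, Nono encodes an RNA-binding protein of paraspeckles, and Sox5 encodes an HMG-box transcription factor. The labels used here do not say whether a knockout is 1 clone, so loss of the gene and other differences between lines cannot be told apart. Nor do they name separate cultures, so p-values measure only the spread between these libraries, which may be technical.

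Integrins are membrane receptors made of an alpha and a beta chain that tie the extracellular matrix to the actin cytoskeleton. Laminins are secreted trimers of an alpha, a beta and a gamma chain that form the scaffold of basement membranes, and integrins bind them mainly through the alpha chain. Fibroblasts use integrins to attach to fibronectin, collagens and laminins, and some integrins with the alpha v chain (gene Itgav) release active TGF-beta from its latent complex.

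The libraries held 30205878 to 43498383 counts. Mitochondrial genes took 6.06% to 10.3% of the counts, with a mean of 8.94% ± 1.24 in Xap5 KO (SD, n = 3) against 6.24% ± 0.0539 in WT (SD, n = 2), and the part of this in the results was not tested. Levels are given as CPM, counts scaled to the same effective library size. Fam50a stood at a mean of 63.8 CPM in WT and 7.75 in Xap5 KO, and Nono at 354 CPM in WT and 31.8 in Nono KO. Sox5 stood at 47.8 CPM in WT, 7.78 in Nono KO, 13.5 in Sox5 KO and 13.7 in Xap5 KO, so the Sox5 transcript was below WT in every knockout and not lowest in the line named for it. All 8 fibroblast markers were detected in every knockout library, and all but Fap (0 and 6 counts) in both WT libraries. Their summed levels were 9498 to 9701 CPM in WT and 25939 to 31437 in Nono KO. They were 12523 to 13060 in Sox5 KO and 9505 to 9946 in Xap5 KO. Most of the rise in Nono KO lay in Col1a1, Col1a2 and Col3a1. Their means were 1089, 3271 and 379 CPM in WT and 6972, 10527 and 4903 in Nono KO. Pdgfra stood at 884 CPM in WT, 868 in Nono KO and 432 in Sox5 KO, and Pdgfrb at 487, 478 and 442. The part of the rise in Nono KO in the results was not tested. Epithelial markers summed to at most 0.497 CPM in any library, with Krt8 and Krt18 at 0 counts throughout, endothelial markers to at most 2.79 CPM and muscle markers to at most 4.12 CPM.

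In Nono KO, integrin and laminin RNAs were mostly higher than in WT, whereas in Xap5 KO and Sox5 KO they moved in both directions. Rises of Lama4, Lamb2 and Lamc1 and falls of Lama2, Itga2 and Itgb3 were called in each knockout. For each of these genes but Lama4, the call in 1 of the 3 knockouts was lost with 1 library left out, namely in Xap5 KO for Lamb2 and Itgb3, in Sox5 KO for Lamc1 and in Nono KO for Lama2 and Itga2, with the values given under each gene. Calls in 1 direction in all 3 knockouts made up 20.7% of the tested members and 15.9% of all tested genes. Of the 29 tested members, 16 were called higher and 5 lower in Nono KO, against 23.5% and 25.1% of all tested genes (48.6% in either direction). In Xap5 KO, 8 were called higher and 10 lower, against 23.2% and 22.3% of all tested genes (45.5% in either direction). In Sox5 KO, 10 were called higher and 9 lower, against 30.6% and 30.3% (60.9% in either direction). The members' shares in either direction were 72.4% in Nono KO, 62.1% in Xap5 KO and 65.5% in Sox5 KO, the last close to its background. A call was an adjusted p under 0.05 from edgeR's quasi-likelihood test, adjusted over all tested genes by Benjamini and Hochberg's method.

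Called changes of at least 2-fold numbered 5 in Xap5 KO (17.2%, against 10.3% of all tested genes), 12 in Nono KO (41.4%, against 11.2%) and 10 in Sox5 KO (34.5%, against 17.2%). The libraries of knockout and WT did not overlap for 24 members in Xap5 KO (63.7% of all tested genes), 22 in Nono KO (65.5%) and 21 in Sox5 KO (75.8%). Over the members, the median log2 fold change was 0.81 in Nono KO, 0.02 in Sox5 KO and 0.09 in Xap5 KO, beside -0.02, -0.01 and 0.003 for all tested genes. The 3 comparisons share the 2 WT libraries, and members with few counts could pass the filter through 1 high group alone, so these counts and medians are a description. The 5 lower calls in Nono KO became 2 without WT replicate 1 and 3 without WT replicate 2.

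**Figure D1:**
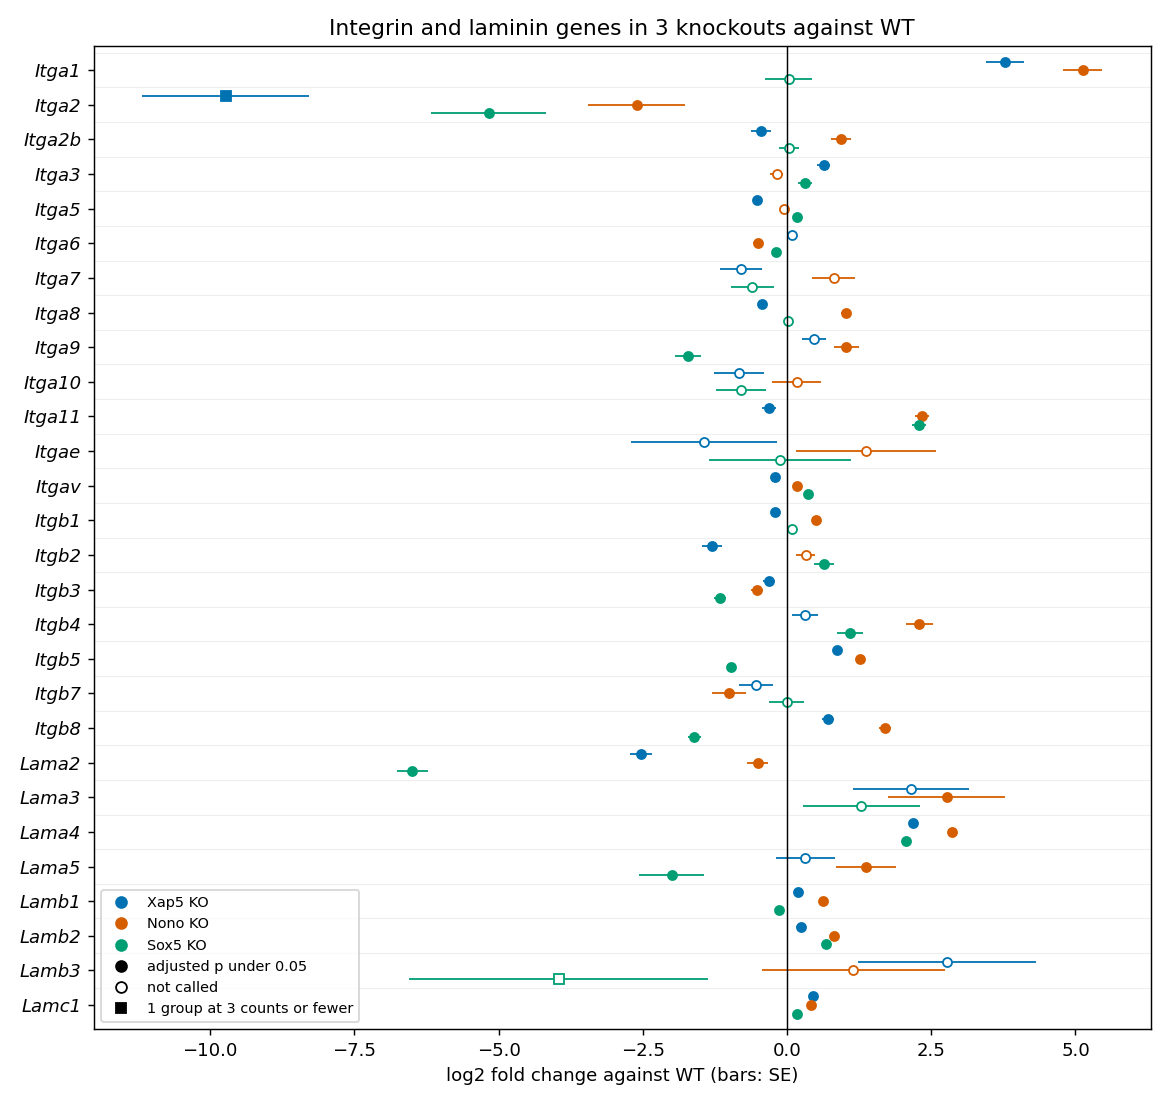
Log2 fold change against WT (x axis, bars show SE) of 28 tested integrin and laminin genes in the 3 knockout lines, with filled symbols for calls and squares where a group had at most 3 counts in every library. Lama4 lies to the right of 0 and Lama2 and Itga2 to the left in each line, while Itgb5 and Itgb8 lie to the right in Xap5 KO and Nono KO and to the left in Sox5 KO.

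Levels of different chains were compared as CPM per kb of the longest annotated transcript. In WT, Itga5 and Itgav were the leading integrin alpha chains, with 46.2 ± 1.71 and 37.8 ± 0.778 CPM per kb (SD, n = 2). Itgb1 led the beta chains with 167 ± 4.37 CPM per kb, followed by Itgb5 with 61.3 ± 0.313 (SD, n = 2). Lamb1 and Lamc1 led the laminin beta and gamma chains with 82.5 ± 1.11 and 57.5 ± 0.297 CPM per kb (SD, n = 2), and Lama4 led the alpha chains with 11.1 ± 0.302. Summed laminin alpha RNA was lower than that of the other laminin classes in WT and higher in the knockouts than in WT. It stood at 13.8 ± 0.304 CPM per kb in WT (SD, n = 2), 83.2 ± 2.46 in Nono KO, 46.6 ± 1.603 in Sox5 KO and 51.2 ± 0.618 in Xap5 KO (SD, n = 3 each). The lowest knockout library, at 45.04 CPM per kb, lay above the higher WT library at 14. Summed beta integrin RNA was 244 ± 3.67 CPM per kb in WT (SD, n = 2), 407 ± 2.89 in Nono KO, 220.2 ± 5.18 in Sox5 KO and 269.7 ± 7.72 in Xap5 KO (SD, n = 3 each). In bulk RNA, fewer cells with a transcript and less of it per cell cannot be told apart.

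**Figure D2:**
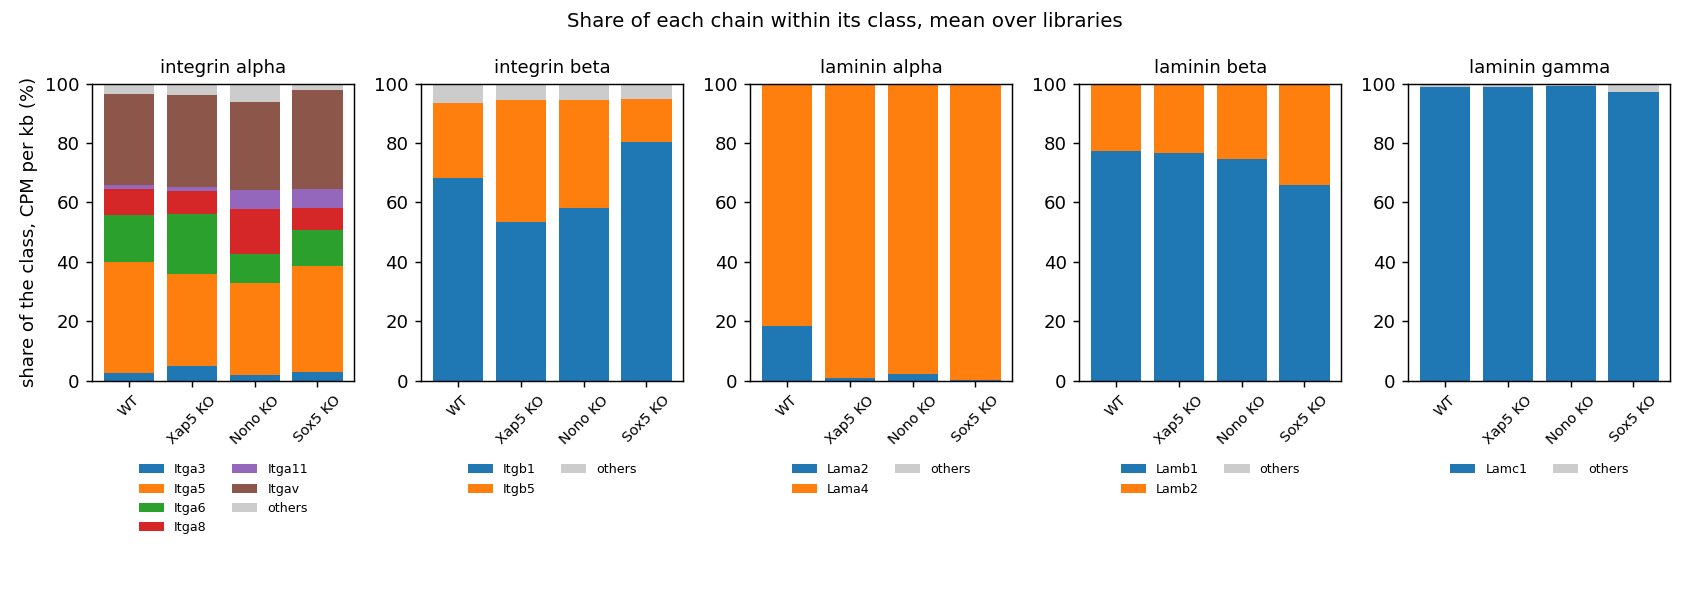
Share of each chain within its class (y axis, percent of the class's summed CPM per kb, mean over the libraries of a genotype) for the integrin and laminin classes. Lama2 takes 18.6% of the laminin alpha level in WT and little in the knockouts, and Itgb5 takes 41.4% of the beta integrin level in Xap5 KO and 14.3% in Sox5 KO.

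Among the laminin alpha chains, Lama4 rose and Lama2 fell. Lama4 encodes the alpha chain of mesenchymal and endothelial laminins. Its level was 68.6 and 66.1 CPM in WT, 486, 481 and 504 in Nono KO, 272, 291 and 282 in Sox5 KO and 311, 304 and 304 in Xap5 KO. No knockout library overlapped WT, and the Nono KO libraries were the highest. The log2 fold change was 2.86 (SE 0.0626, adjusted p = 2.37e-18) in Nono KO, 2.06 (SE 0.0604, adjusted p = 8.78e-17) in Sox5 KO and 2.19 (SE 0.0607, adjusted p = 5.79e-17) in Xap5 KO. Each of these calls held with any 1 library left out.

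Lama2 encodes the alpha chain of muscle and peripheral nerve laminins, whose loss causes a muscular dystrophy. Its level was 24.4 and 24.7 CPM in WT, 14.9, 14.9 and 22.2 in Nono KO, 0.155, 0.271 and 0.383 in Sox5 KO and 4.07, 3.68 and 4.97 in Xap5 KO. All knockout libraries lay below WT, and the Sox5 KO libraries, with 5, 8 and 12 counts, were the lowest. Against WT the log2 fold change was -6.50 (SE 0.267, adjusted p = 1.82e-14) in Sox5 KO, -2.54 (SE 0.192, adjusted p = 6.86e-10) in Xap5 KO and -0.51 (SE 0.183, adjusted p = 0.0267) in Nono KO. The call in Nono KO was lost without WT replicate 1 (-0.51, adjusted p = 0.103), WT replicate 2 (-0.49, adjusted p = 0.122), Nono KO replicate 1 (-0.41, adjusted p = 0.113) or Nono KO replicate 2 (-0.41, adjusted p = 0.107). The annotation places an antisense gene over Lama2 exons, and the count is uncertain if strand was not used. Within the laminin alpha class, Lama4 made up 80.8% ± 0.413 of the CPM per kb in WT (SD, n = 2), 97.5% ± 0.4097 in Nono KO, 99.8% ± 0.0528 in Sox5 KO and 98.8% ± 0.202 in Xap5 KO (SD, n = 3 each).

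The other laminin alpha genes were at low levels. Lama5, an alpha chain of epithelial and vascular basement membranes, stood at 0.992 and 0.658 CPM in WT, 2.86, 1.802 and 1.74 in Nono KO, 0.247, 0.203 and 0.159 in Sox5 KO and 0.952, 0.974 and 1.16 in Xap5 KO. The Nono KO libraries lay above WT, the Sox5 KO libraries below it, and Xap5 KO overlapped it. Its log2 fold change was -2.00 (SE 0.5597, adjusted p = 0.00402) in Sox5 KO, 1.37 (SE 0.517, adjusted p = 0.0333) in Nono KO and 0.32 in Xap5 KO, the last not called. The call in Nono KO was lost without WT replicate 1 (1.70, adjusted p = 0.0523), WT replicate 2 (1.11, adjusted p = 0.179), Nono KO replicate 1 (1.10, adjusted p = 0.14) or under scaling by library totals (1.21, adjusted p = 0.0533).

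Lama3, the alpha chain of epithelial anchoring laminins, had 6 and 6 counts in WT, 50, 35 and 32 in Nono KO, 21, 12 and 0 in Sox5 KO and 18, 22 and 36 in Xap5 KO. The Xap5 KO and Nono KO libraries lay above WT, and Sox5 KO overlapped it. Of the log2 fold changes, 2.77 (SE 1.02, adjusted p = 0.0288) in Nono KO was called, and 1.29 in Sox5 KO and 2.15 in Xap5 KO were not. The call in Nono KO was lost without WT replicate 1 (2.84, adjusted p = 0.117), WT replicate 2 (2.72, adjusted p = 0.132) or Nono KO replicate 1 (2.58, adjusted p = 0.0656). The value in Xap5 KO was called without Sox5 KO replicate 3 (2.15, adjusted p = 0.0383) or in DESeq2 (2.16, adjusted p = 0.0404). An antisense gene overlaps Lama3 exons. Lama1 had 0 counts in all 11 libraries, which allows up to 3 counts in each.

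The beta and gamma chains of common laminins changed less than Lama4. Lamc1, the gamma chain of most laminins, stood at 436 and 439.7 CPM in WT, 569, 584 and 599.8 in Nono KO, 476, 505 and 492 in Sox5 KO and 618, 602 and 580.1 in Xap5 KO. All knockout libraries lay above WT. Its log2 fold change was 0.41 (SE 0.0559, adjusted p = 2.71e-06) in Nono KO, 0.16 (SE 0.0556, adjusted p = 0.0145) in Sox5 KO and 0.45 (SE 0.05597, adjusted p = 9.98e-07) in Xap5 KO. The call in Sox5 KO was lost without WT replicate 1 (0.15, adjusted p = 0.109), WT replicate 2 (0.17, adjusted p = 0.0814) or under scaling by library totals (0.05, adjusted p = 0.425). The value in Nono KO was smaller under scaling by library totals (0.25, adjusted p = 0.000413).

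Lamb1, a beta chain found with Lamc1 in many laminins, stood at 472 and 482 CPM in WT, 722, 739.96 and 750.1 in Nono KO, 419, 443 and 439 in Sox5 KO and 538, 546 and 549.7 in Xap5 KO. The Nono KO libraries were the highest, and the Sox5 KO libraries lay below WT. Against WT it changed by 0.63 (SE 0.0544, adjusted p = 4.25e-09) on the log2 scale in Nono KO, 0.19 (SE 0.0538, adjusted p = 0.00631) in Xap5 KO and -0.14 (SE 0.0534, adjusted p = 0.0317) in Sox5 KO. The call in Xap5 KO was lost without WT replicate 1 (0.17, adjusted p = 0.0934). The call in Sox5 KO was lost without WT replicate 1 (-0.16, adjusted p = 0.0752), WT replicate 2 (-0.13, adjusted p = 0.159) or Sox5 KO replicate 1 (-0.11, adjusted p = 0.086), and the fall was larger under scaling by library totals (-0.25, adjusted p = 0.000339).

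Lamb2, a beta chain of synaptic and kidney laminins, had log2 fold changes of 0.82 (SE 0.0729, adjusted p = 6.6e-09) in Nono KO, 0.68 (SE 0.0727, adjusted p = 5.98e-08) in Sox5 KO and 0.23 (SE 0.0719, adjusted p = 0.0112) in Xap5 KO. The call in Xap5 KO was lost without WT replicate 2 (0.16, adjusted p = 0.196), Xap5 KO replicate 3 (0.18, adjusted p = 0.0525) or under scaling by library totals (0.18, adjusted p = 0.0534). Its share of the laminin beta level was 22.8% ± 1.39 in WT (SD, n = 2) and 34.2% ± 0.495 in Sox5 KO (SD, n = 3). Lamb3, an epithelial beta chain, had at most 22 counts in any library and no call against WT.

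**Figure D3:**
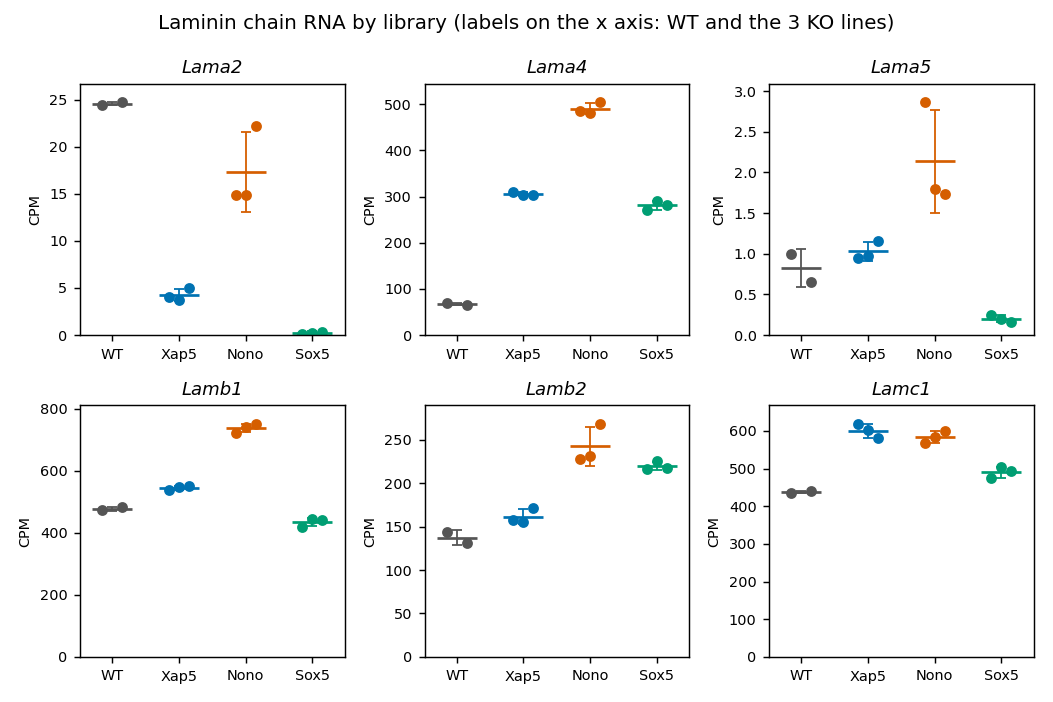
CPM (y axis, from 0) of 6 laminin genes in each library of the 4 genotypes, with points for libraries, horizontal lines for means and bars for SD. Lama4 has a mean of 67.3 CPM in WT and its lowest knockout library is at 272 CPM, while Lama2 has a mean of 24.6 CPM in WT and 0.269 in Sox5 KO.

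Genes of collagen-binding integrin alpha chains, which pair with the Itgb1 product, included the widest changes among the integrins. Itga1 encodes a receptor chain for collagen IV and other collagens. Its level was 0.868 and 0.204 CPM in WT, 19.8, 19.2 and 16.4 in Nono KO, 0.587, 0.576 and 0.447 in Sox5 KO and 6.64, 6.91 and 8.27 in Xap5 KO. Xap5 KO and Nono KO lay above WT without overlap, and Sox5 KO lay within the WT range. The WT libraries held 35 and 9 counts. The log2 fold change was 3.78 (SE 0.337, adjusted p = 2.89e-08) in Xap5 KO and 5.12 (SE 0.344, adjusted p = 3.56e-10) in Nono KO. With 1 library left out, it ranged from 3.05 to 5.12 in Xap5 KO and from 4.42 to 6.48 in Nono KO. In Sox5 KO it was 0.03 (SE 0.407, adjusted p = 0.962), and it was called without WT replicate 1 (1.37, adjusted p = 0.0119). A gene model on the same strand shares exon sequence with Itga1, so the division of reads between them is uncertain.

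Itga2, a collagen receptor chain of platelets and epithelia, was highest in WT, with 124 and 113 counts in WT, 14, 10 and 29 in Nono KO, 0, 0 and 7 in Sox5 KO and 0, 0 and 0 in Xap5 KO. All knockout libraries lay below WT. Against the floor of 3 counts per library, the Itga2 level in Xap5 KO was at least 37.2-fold lower than in WT (adjusted p = 1.89e-05). The log2 fold change was -5.17 (SE 1.003, adjusted p = 0.000178) in Sox5 KO and -2.61 (SE 0.838, adjusted p = 0.0148) in Nono KO. Sox5 KO replicate 3 held all counts of its group, and the fitted value without Sox5 KO replicate 3 (-9.76, adjusted p = 5.34e-05) rests on a group at 0 and is no bound. The call in Nono KO was lost without WT replicate 1 (-2.46, adjusted p = 0.12) or WT replicate 2 (-2.72, adjusted p = 0.0739).

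Itga11 encodes a receptor chain for fibrillar collagens found on fibroblasts. Its level was 8.76 and 9.67 CPM in WT, 42.6, 49.9 and 47.1 in Nono KO, 43.6, 47.1 and 44.2 in Sox5 KO and 7.205, 6.43 and 8.603 in Xap5 KO. Libraries of Nono KO and Sox5 KO lay several-fold above WT, and Xap5 KO lay just below it. It rose by 2.33 (SE 0.121, adjusted p = 1.07e-12) on the log2 scale in Nono KO and 2.29 (SE 0.121, adjusted p = 9.29e-13) in Sox5 KO. In Xap5 KO it changed by -0.32 (SE 0.1198, adjusted p = 0.0369), a call lost without WT replicate 2 (-0.25, adjusted p = 0.221), Xap5 KO replicate 1 (-0.31, adjusted p = 0.061), Xap5 KO replicate 2 (-0.23, adjusted p = 0.142) or in a fit of the 2 groups alone (-0.33, adjusted p = 0.169). Itga10, a collagen receptor chain of cartilage, stood at 0.7205 to 2.58 CPM over all libraries and had no call against WT. A gene model on the same strand overlaps Itga10 exons.

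Most changes of the laminin receptor genes Itga3, Itga6 and Itga7 were small. Itga6, whose product binds most laminins, changed by -0.50 (SE 0.0787, adjusted p = 1.77e-05) on the log2 scale in Nono KO, and its 0.09 in Xap5 KO was not called. In Sox5 KO it changed by -0.19 (SE 0.0791, adjusted p = 0.0475), a call lost without WT replicate 1 (-0.21, adjusted p = 0.0915), WT replicate 2 (-0.17, adjusted p = 0.184), Nono KO replicate 3 (-0.19, adjusted p = 0.0519), Sox5 KO replicate 1 (-0.15, adjusted p = 0.142), Sox5 KO replicate 2 (-0.16, adjusted p = 0.13) or in DESeq2 (-0.19, adjusted p = 0.0564). The fall in Sox5 KO was larger under scaling by library totals (-0.30, adjusted p = 0.00248). Itga3, another laminin receptor chain, rose by 0.63 (SE 0.117, adjusted p = 0.000144) in Xap5 KO and by 0.31 (SE 0.117, adjusted p = 0.0282) in Sox5 KO. The call in Sox5 KO was lost without WT replicate 1 (0.19, adjusted p = 0.291), Sox5 KO replicate 1 (0.25, adjusted p = 0.106) or under scaling by library totals (0.19, adjusted p = 0.157). Its -0.18 in Nono KO was not called, but was called under scaling by library totals (-0.34, adjusted p = 0.0165). Itga7, a muscle laminin receptor chain, ranged from 0.875 to 5.14 CPM with no call against WT. Its 0.81 in Nono KO was called without Nono KO replicate 2 (0.98, adjusted p = 0.0486), with at least 10 counts asked of every library (0.82, adjusted p = 0.044) or in a fit of the 2 groups alone (0.83, adjusted p = 0.0412).

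Itgb4, which pairs with the Itga6 product in hemidesmosomes, stood at 1.61 and 2.18 CPM in WT, 9.65, 9.25 and 9.03 in Nono KO, 4.64, 3.86 and 3.67 in Sox5 KO and 2.599, 2.29 and 2.16 in Xap5 KO. Nono KO lay above Sox5 KO and Sox5 KO above WT, without overlap, while Xap5 KO overlapped WT. The log2 fold change was 1.09 (SE 0.231, adjusted p = 0.00032) in Sox5 KO and 2.29 (SE 0.234, adjusted p = 5.54e-08) in Nono KO, and 0.31 in Xap5 KO was not called. Genes on the opposite strand overlap exons of Itga7 and Itgb4, and without strand their reads cannot be told apart.

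**Figure D4:**
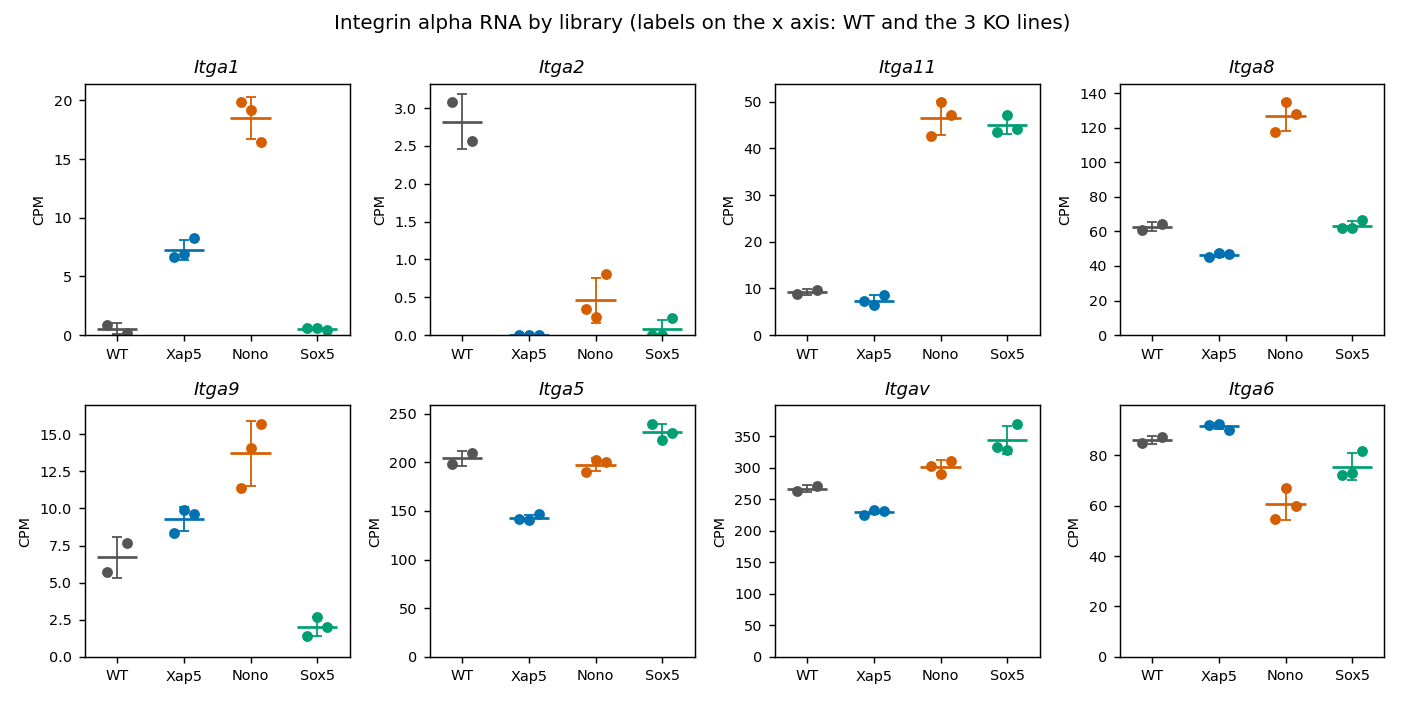
CPM (y axis, from 0) of 8 integrin alpha genes in each library of the 4 genotypes, with points for libraries, horizontal lines for means and bars for SD. Itga1 is high in Xap5 KO and Nono KO, Itga11 in Nono KO and Sox5 KO, and Itga8 in Nono KO, and Itga2 is highest in WT.

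The abundant fibronectin receptor genes showed small differences. Itga5, the alpha chain of the classical fibronectin receptor, stood at 199 and 209 CPM in WT, 189.7, 203 and 199.96 in Nono KO, 239, 222 and 229.98 in Sox5 KO and 142, 140.2 and 146 in Xap5 KO. Xap5 KO lay below all other libraries, Sox5 KO lay above them, and Nono KO overlapped WT. It changed by -0.51 (SE 0.0575, adjusted p = 2.65e-07) on the log2 scale in Xap5 KO, and its -0.05 in Nono KO was not called, but was called under scaling by library totals (-0.21, adjusted p = 0.0046). In Sox5 KO it changed by 0.18 (SE 0.0581, adjusted p = 0.0123), a call lost without WT replicate 1 (0.13, adjusted p = 0.168) or under scaling by library totals (0.06, adjusted p = 0.375).

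Itgb1, the partner of the largest number of alpha chains, stood at 625 and 648 CPM in WT, 900.1, 921 and 891 in Nono KO, 658, 671 and 699 in Sox5 KO and 547, 555 and 543 in Xap5 KO. It was highest in Nono KO and lowest in Xap5 KO, with no overlap of either with WT. Its log2 fold change was 0.51 (SE 0.0549, adjusted p = 1.32e-07) in Nono KO and -0.22 (SE 0.05396, adjusted p = 0.0025) in Xap5 KO, and 0.09 in Sox5 KO was not called. Itga8, a receptor chain for nephronectin, stood at 60.8 and 64.4 CPM in WT, 117, 135 and 128 in Nono KO, 61.7, 61.8 and 66.5 in Sox5 KO and 45.2, 47.7 and 46.8 in Xap5 KO. Nono KO lay above and Xap5 KO below the WT libraries. It changed by 1.02 (SE 0.07396, adjusted p = 2.74e-10) in Nono KO and -0.43 (SE 0.0722, adjusted p = 5.55e-05) in Xap5 KO, and 0.02 in Sox5 KO was not called. An antisense gene overlaps Itga8 exons.

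Itga2b, known from the platelet fibrinogen receptor, rose by 0.94 (SE 0.173, adjusted p = 0.000124) in Nono KO, and its 0.03 in Sox5 KO was not called. In Xap5 KO it changed by -0.45 (SE 0.172, adjusted p = 0.0381), a call lost without WT replicate 1 (-0.28, adjusted p = 0.329), Xap5 KO replicate 1 (-0.38, adjusted p = 0.104), Xap5 KO replicate 2 (-0.46, adjusted p = 0.0603) or in a fit of the 2 groups alone (-0.46, adjusted p = 0.0936). Itga9, a receptor chain for tenascin C and other matrix ligands, stood at 5.73 and 7.67 CPM in WT, 11.3, 14.1 and 15.7 in Nono KO, 1.39, 2.68 and 2.04 in Sox5 KO and 8.36, 9.91 and 9.61 in Xap5 KO. Nono KO was highest, followed by Xap5 KO, WT and Sox5 KO, without overlap. Its log2 fold change was 1.03 (SE 0.215, adjusted p = 0.000427) in Nono KO, -1.72 (SE 0.227, adjusted p = 1.11e-06) in Sox5 KO and 0.47 (SE 0.213, adjusted p = 0.0777) in Xap5 KO, the last not called.

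Itgav, the shared alpha chain of vitronectin receptors, had a smaller fold change in Sox5 KO than its beta partners Itgb3, Itgb5 and Itgb8. Its log2 fold change was 0.37 (SE 0.0607, adjusted p = 2.18e-05) in Sox5 KO, -0.22 (SE 0.05997, adjusted p = 0.00569) in Xap5 KO and 0.18 (SE 0.0604, adjusted p = 0.0193) in Nono KO. The call in Xap5 KO was lost without WT replicate 2 (-0.20, adjusted p = 0.0618). The call in Nono KO was lost without WT replicate 1 (0.16, adjusted p = 0.137), WT replicate 2 (0.21, adjusted p = 0.0563), Nono KO replicate 3 (0.15, adjusted p = 0.0595) or under scaling by library totals (0.01, adjusted p = 0.876). A gene on the opposite strand overlaps Itgav exons.

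Itgb5 encodes a vitronectin receptor chain that pairs with the Itgav product. Its level was 200.4 and 202 CPM in WT, 478, 466 and 503 in Nono KO, 111, 95.3 and 103 in Sox5 KO and 339, 372 and 388 in Xap5 KO. The groups did not overlap, with Nono KO highest and Sox5 KO lowest. It changed by 1.26 (SE 0.0712, adjusted p = 4.19e-12) on the log2 scale in Nono KO, 0.86 (SE 0.0702, adjusted p = 2.15e-09) in Xap5 KO and -0.96 (SE 0.0684, adjusted p = 1.03e-10) in Sox5 KO. Its share of the beta integrin level was 25.1% ± 0.249 in WT (SD, n = 2), 36.1% ± 1.24 in Nono KO, 14.3% ± 1.11 in Sox5 KO and 41.4% ± 1.71 in Xap5 KO (SD, n = 3 each).

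Itgb8 encodes the beta chain of a TGF-beta-activating receptor. Its level was 30.5 and 28.2 CPM in WT, 92.6, 93.9 and 99.4 in Nono KO, 10.8, 8.95 and 9.22 in Sox5 KO and 44.4, 43.5 and 55.6 in Xap5 KO. The order of the groups was that of Itgb5, again without overlap. The log2 fold change was 1.70 (SE 0.107, adjusted p = 2.7e-11) in Nono KO, -1.61 (SE 0.108, adjusted p = 4.38e-11) in Sox5 KO and 0.70 (SE 0.104, adjusted p = 1.08e-05) in Xap5 KO. The calls of Itgb5 and Itgb8 held in all 3 knockouts with any 1 library left out.

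Itgb3, the beta chain of the classical vitronectin receptor, stood at 42.99 and 44.1 CPM in WT, 28.6, 29.5 and 33 in Nono KO, 17.01, 18.6 and 23.03 in Sox5 KO and 35.4, 34.4 and 35.5 in Xap5 KO. All knockout libraries lay below WT, those of Sox5 KO lowest. It changed by -1.16 (SE 0.107, adjusted p = 6.56e-09) on the log2 scale in Sox5 KO, -0.52 (SE 0.106, adjusted p = 0.000328) in Nono KO and -0.31 (SE 0.106, adjusted p = 0.0207) in Xap5 KO. The call in Xap5 KO was lost without WT replicate 1 (-0.34, adjusted p = 0.0619), WT replicate 2 (-0.30, adjusted p = 0.104) or Xap5 KO replicate 2 (-0.31, adjusted p = 0.0519).

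**Figure D5:**
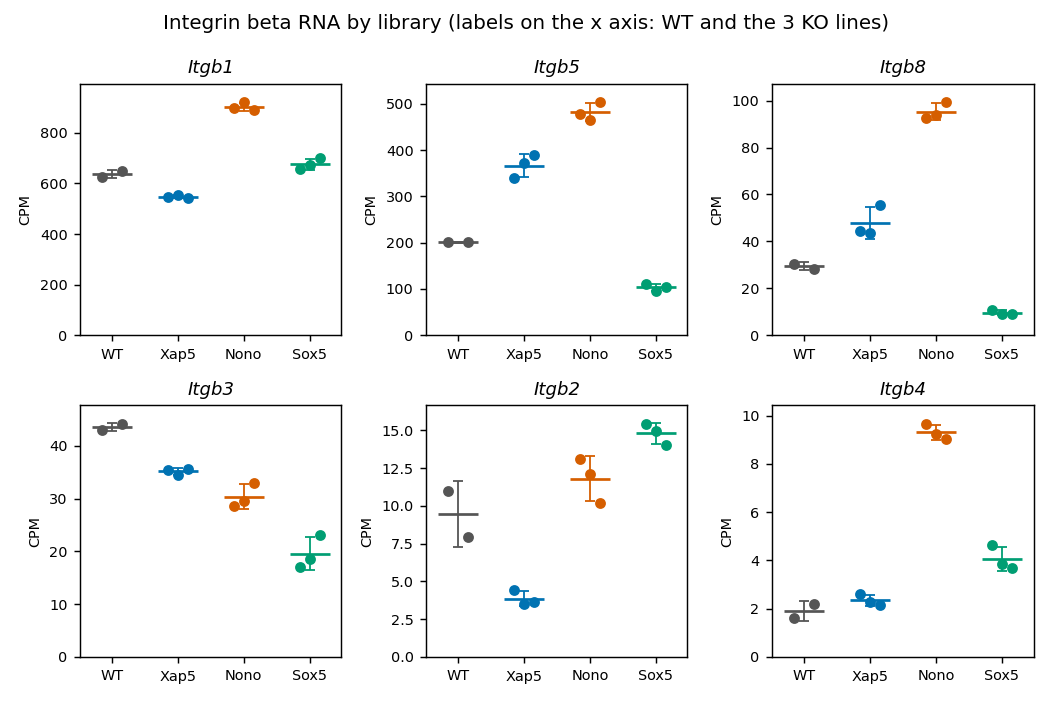
CPM (y axis, from 0) of 6 integrin beta genes in each library of the 4 genotypes, with points for libraries, horizontal lines for means and bars for SD. Itgb5 and Itgb8 are above WT in Xap5 KO and Nono KO and below it in Sox5 KO, and Itgb3 is below WT in every knockout library.

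Integrin genes known from leukocytes were low. Itgb2, the common beta chain of leukocyte integrins, stood at 11.01 and 7.92 CPM in WT, 13.1, 12.1 and 10.2 in Nono KO, 15.4, 14.9 and 14.03 in Sox5 KO and 4.43, 3.48 and 3.63 in Xap5 KO. Xap5 KO lay below and Sox5 KO above all other libraries, and Nono KO overlapped WT. Its log2 fold change was -1.30 (SE 0.174, adjusted p = 3.03e-06) in Xap5 KO and 0.65 (SE 0.172, adjusted p = 0.00275) in Sox5 KO. The call in Sox5 KO was lost without WT replicate 2 (0.42, adjusted p = 0.0929). Its 0.32 in Nono KO was not called, but was called without WT replicate 1 (0.58, adjusted p = 0.0336). Itgb7, a beta chain of lymphocyte homing receptors, changed by -1.01 (SE 0.302, adjusted p = 0.00867) in Nono KO, a call lost without WT replicate 1 (-0.78, adjusted p = 0.113). Its values of -0.01 in Sox5 KO and -0.54 in Xap5 KO were not called.

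The alpha partners of Itgb2 were at or near 0. Itgam and Itgad each had 2 counts in 1 library and 0 in the others, Itgax had 10 counts in 1 library and 0 in the others, and Itgal had at most 8 counts. Itga4, a lymphocyte integrin chain, had at most 35 counts, Itgb6, an epithelial chain, at most 15, and Lamc3 at most 8. Itgae, a chain of mucosal lymphocytes, had 24 and 1 counts in WT, 43, 34 and 18 in Nono KO, 8, 12 and 6 in Sox5 KO and 0, 0 and 13 in Xap5 KO and no call against WT. Xap5 KO replicate 3 held all counts of its group, and the value of -1.44 in Xap5 KO was called without Xap5 KO replicate 3 (-6.54, adjusted p = 0.0135), where the fitted value rests on a group at 0. Among the 5 leukocyte markers, Cd3e was one with 0 counts in every library. The markers summed to 2.56 to 2.72 CPM in WT, 7.60 to 11.6 in Nono KO, 2.58 to 3.96 in Sox5 KO and 3.86 to 5.28 in Xap5 KO. In Nono KO most of this was Ptprc, the leukocyte common antigen, at a mean of 6.66 CPM against 0.107 in WT. The part of leukocyte transcripts in the integrin results was not tested.

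Direct tests between knockouts showed where the lines differed from each other. Xap5 KO had 20 members lower and 2 higher than Nono KO, against 25.9% and 27.1% of all tested genes (53% in either direction). All 13 tested integrin alpha genes were among the calls, with Itga3 and Itga6 higher and the other 11 lower. Of these, the call of Itga9 (-0.56) was lost without Nono KO replicate 3 (-0.45, adjusted p = 0.0782). The call of Itga10 (-0.999667) was lost without Xap5 KO replicate 1 (-0.82, adjusted p = 0.115), Xap5 KO replicate 2 (-1.07, adjusted p = 0.0539), Nono KO replicate 1 (-0.95, adjusted p = 0.083), Nono KO replicate 2 (-0.79, adjusted p = 0.147), under scaling by library totals (-0.88, adjusted p = 0.0605) or in a fit of the 2 groups alone (-1.00005, adjusted p = 0.0531). The call of Itgae (-2.81) was lost without Xap5 KO replicate 1 (-2.26, adjusted p = 0.117), Xap5 KO replicate 2 (-2.25, adjusted p = 0.132), Nono KO replicate 1 (-2.55, adjusted p = 0.106), Nono KO replicate 2 (-2.78, adjusted p = 0.0761), Sox5 KO replicate 1 (-2.81, adjusted p = 0.0639), Sox5 KO replicate 2 (-2.81, adjusted p = 0.0605), Sox5 KO replicate 3 (-2.81, adjusted p = 0.0631), under scaling by library totals (-2.69, adjusted p = 0.059) or with no filter on low counts (-2.82, adjusted p = 0.0542). Without Nono KO replicate 3, 4 members were called higher in Xap5 KO than in Nono KO. Nono KO had 17 members higher and 6 lower than Sox5 KO, against 30.9% and 32.6% (63.5% in either direction). Of these, the calls of Itga2 (2.57) and Itga10 (0.96) were lost in some fits with 1 library left out. Examples are Itga2 without Nono KO replicate 3 (1.93, adjusted p = 0.119) and Itga10 without Nono KO replicate 2 (0.75, adjusted p = 0.157). Xap5 KO had 13 higher and 11 lower than Sox5 KO, against 31.1% and 30.4% (61.6% in either direction). Besides Lama4, given below, the calls of Itga2 and Itga2b were lost in some such fits. Examples are Itga2 without Xap5 KO replicate 2 (-4.54, adjusted p = 0.0907) and Itga2b without Sox5 KO replicate 2 (-0.39, adjusted p = 0.0644).

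Calls of at least 2-fold numbered 10 in each of these pairs (34.5%), against 17% of all tested genes between Nono KO and Sox5 KO, 11.1% between Nono KO and Xap5 KO, and 15% between Sox5 KO and Xap5 KO. Libraries did not overlap for 27, 25 and 23 of the 29 members in the same order of pairs, against 69.1%, 57.9% and 67% of all tested genes. Lama2 was 63.7-fold higher in Nono KO than in Sox5 KO, a log2 difference of 5.99 (SE 0.2598, adjusted p = 3.43e-14). Itga1 was 34.2-fold higher in Nono KO than in Sox5 KO, a log2 difference of 5.10 (SE 0.297, adjusted p = 2.19e-11), and 13.5-fold higher in Xap5 KO than in Sox5 KO. Itga11 was 6.28-fold lower in Xap5 KO than in Nono KO, a log2 difference of -2.65 (SE 0.106, adjusted p = 2.37e-14), while Nono KO and Sox5 KO differed by 0.05 (SE 0.096, adjusted p = 0.686). Lama4 differed between Xap5 KO and Sox5 KO by 0.12 (SE 0.0494, adjusted p = 0.0385), a call lost without WT replicate 1 (0.12, adjusted p = 0.0617), WT replicate 2 (0.12, adjusted p = 0.0624), Xap5 KO replicate 1 (0.10, adjusted p = 0.107), Xap5 KO replicate 2 (0.12, adjusted p = 0.075), Sox5 KO replicate 1 (0.10, adjusted p = 0.123), Sox5 KO replicate 3 (0.12, adjusted p = 0.0694), with no filter on low counts (0.12, adjusted p = 0.0639) or in a fit of the 2 groups alone (0.13, adjusted p = 0.0674). Itga2 had 0, 0 and 0 counts in Xap5 KO and 0, 0 and 7 in Sox5 KO, too near the floor for a fold.

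Promoter sequences are shown because Sox5 encodes a DNA-binding factor. They are limited to the 4 members that met the following rule. The member was called higher in Nono KO and lower in Sox5 KO than in WT, and differed at least 2-fold between these lines. The Sox5 transcript averaged 47.8 CPM in WT, 13.5 in Sox5 KO and 7.78 in Nono KO. It was thus below WT in both lines, and lower in the line where these members were higher. Whether Sox5 has a part in these differences was not tested. Each window is from RefSeq on GRCm38.p6, runs from 250 bases before to 50 bases after the gene start and is written 5′ to 3′ on the gene's strand. Capitals mark matches on either strand to ACAAT (the core of SOX sites), GGGCGG (the GC box) and CCAAT (the CCAAT box), which do not overlap here.
Itga9, chr9:118711442-118711741, plus strand: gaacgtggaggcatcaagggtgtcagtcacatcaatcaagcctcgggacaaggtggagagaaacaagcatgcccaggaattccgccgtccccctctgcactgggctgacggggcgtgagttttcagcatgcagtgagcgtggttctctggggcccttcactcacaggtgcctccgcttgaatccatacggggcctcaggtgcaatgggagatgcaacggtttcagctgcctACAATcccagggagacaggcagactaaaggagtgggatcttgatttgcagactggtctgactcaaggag
Itgb5, chr16:33829415-33829714, plus strand: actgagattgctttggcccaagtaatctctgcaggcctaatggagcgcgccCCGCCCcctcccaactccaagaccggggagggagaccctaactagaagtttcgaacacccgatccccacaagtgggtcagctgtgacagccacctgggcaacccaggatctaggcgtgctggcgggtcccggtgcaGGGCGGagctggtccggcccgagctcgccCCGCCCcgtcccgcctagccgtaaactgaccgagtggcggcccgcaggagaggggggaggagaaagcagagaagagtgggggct
Itgb8, chr12:119238227-119238526, minus strand: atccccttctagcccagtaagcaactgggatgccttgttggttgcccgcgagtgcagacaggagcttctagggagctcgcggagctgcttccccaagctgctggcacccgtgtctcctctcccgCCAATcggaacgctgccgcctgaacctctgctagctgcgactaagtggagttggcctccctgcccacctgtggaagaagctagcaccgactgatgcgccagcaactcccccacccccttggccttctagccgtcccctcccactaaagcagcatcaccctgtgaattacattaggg
Lama5, chr2:180225810-180226109, minus strand: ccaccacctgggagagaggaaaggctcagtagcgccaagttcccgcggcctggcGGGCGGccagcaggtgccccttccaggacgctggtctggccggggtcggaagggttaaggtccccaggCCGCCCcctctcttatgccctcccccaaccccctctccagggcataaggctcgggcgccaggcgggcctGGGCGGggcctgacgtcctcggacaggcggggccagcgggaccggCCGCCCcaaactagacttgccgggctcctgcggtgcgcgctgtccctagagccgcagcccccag
The Itga9 window held 1 SOX core match, which starts at position -19 from the gene start. The Itgb5 window held 3 GC boxes, the Lama5 window 4, and the Itgb8 window 1 CCAAT box. The SOX core letters were found in 31.02% of all 32851 promoter windows of this length, the GC box in 35.66% and the CCAAT box in 37.41%. Of the 26 windows found for 23 members, 6 held the SOX core, 12 the GC box and 4 the CCAAT box. A match describes letters and is not a binding site.

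Genes that work with integrins and laminins were counted in 4 lists. Among 25 tested cytoplasmic adaptors and kinases of integrins, 14 were called higher and 3 lower in Xap5 KO, 14 and 4 in Nono KO, and 12 and 7 in Sox5 KO. In either direction 72% in Nono KO, 76% in Sox5 KO and 68% in Xap5 KO of these genes were called, against 48.6%, 60.9% and 45.5% of all tested genes. Their median log2 fold changes were 0.43 in Nono KO, 0.16 in Sox5 KO and 0.27 in Xap5 KO. Vcl, encoding vinculin, which links adhesions to actin, stood at 148 ± 3.28 CPM in WT (SD, n = 2), 519 ± 22.6 in Nono KO, 316 ± 39.7 in Sox5 KO and 273 ± 9.54 in Xap5 KO (SD, n = 3 each). It rose in each knockout, by 1.81 in Nono KO, 1.09 in Sox5 KO and 0.88 in Xap5 KO on the log2 scale. Ilk, the integrin-linked pseudokinase, rose by 0.70 in Nono KO, 1.42 in Sox5 KO and 0.45 in Xap5 KO. Tln2, a talin that activates integrins, changed by 1.42 in Nono KO and -0.73 in Sox5 KO, and its -0.10 in Xap5 KO was not called. Parvg, a parvin of blood cells with few counts, changed by -2.52 (SE 0.887) in Nono KO, with -1.78 in Xap5 KO and 0.13 in Sox5 KO not called. Its counts were 47 and 55 in WT, 8, 3 and 13 in Nono KO and 20, 0 and 21 in Xap5 KO.

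Among 14 tested basement membrane partners of laminin, 3 were called higher and 5 lower in Xap5 KO, 6 and 4 in Nono KO, and 5 and 6 in Sox5 KO. The shares called were 71.4% in Nono KO, 78.6% in Sox5 KO and 57.1% in Xap5 KO, against 48.6%, 60.9% and 45.5% of all tested genes. The medians were 0.12 in Nono KO, -0.18 in Sox5 KO and -0.15 in Xap5 KO. Nid2, a nidogen that bridges laminin and collagen IV, changed by 4.06 in Nono KO, 3.01 in Sox5 KO and -1.72 in Xap5 KO. Col15a1, a basement membrane collagen, had 1650 and 1890 counts in WT, 4, 0 and 12 in Nono KO, 1420, 1152 and 1434 in Sox5 KO and 0, 18 and 0 in Xap5 KO, and its falls in Xap5 KO (-8.08) and Nono KO (-8.23) were called while its 0.03 in Sox5 KO was not. Sparc, a collagen-binding matricellular protein, rose by 2.36 in Nono KO, 1.89 in Sox5 KO and 1.48 in Xap5 KO. Col4a3, a collagen IV chain with few counts, changed by -2.87 in Sox5 KO and was not called in Xap5 KO (-0.21) or Nono KO (-0.50).

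Among 18 tested integrin ligands other than laminin, 8 were called higher and 7 lower in Xap5 KO, 12 and 4 in Nono KO, and 10 and 6 in Sox5 KO. Calls covered 88.9% in Nono KO, 88.9% in Sox5 KO and 83.3% in Xap5 KO of the ligands, beside 48.6%, 60.9% and 45.5% over all tested genes. The medians were 0.68 in Nono KO, 0.44 in Sox5 KO and 0.02 in Xap5 KO. Thbs1, encoding a thrombospondin, rose by 2.89 in Nono KO, 2.36 in Sox5 KO and 3.65 in Xap5 KO, and Postn, encoding periostin, by 3.20, 3.06 and 2.68 in this order. Col3a1, a fibrillar collagen chain that was also among the fibroblast markers, changed by 3.69 in Nono KO, 0.61 in Sox5 KO and -1.00263 in Xap5 KO. Edil3, an RGD-bearing ligand of Itgav receptors, had 4885 and 4968 counts in WT and 0, 6 and 0 in Sox5 KO. It also fell in Xap5 KO (-2.60), and its -0.16 in Nono KO was not called.

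Among 10 integrin-associated membrane proteins, 1 was called higher and 2 lower in Xap5 KO, 5 and 3 in Nono KO, and 6 and 2 in Sox5 KO. That was 30% of the list in Xap5 KO, below the 45.5% of all tested genes, and 80% in Nono KO and 80% in Sox5 KO, above 48.6% and 60.9%. The medians were 0.24 in Nono KO, 0.52 in Sox5 KO and 0.02 in Xap5 KO. Cav1, the caveolin that forms caveolae, rose by 2.77 in Nono KO, 1.88 in Sox5 KO and 1.16 in Xap5 KO. Cd82, a tetraspanin, changed by -0.81 in Nono KO, -0.78 in Sox5 KO and -0.69 in Xap5 KO. Slc3a2, which binds beta chains, rose by 0.59 in Nono KO and 1.45 in Sox5 KO, and Cd151, a tetraspanin of laminin receptors, changed by -0.28 in Nono KO and 1.09 in Sox5 KO. Neither was called in Xap5 KO (0.15 and 0.19).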

How the data were processed

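Each of 11 RNA-seq libraries had a column of gene counts in the deposited table. The submitters' processing notes name HISAT2 2.1.0, StringTie 1.3.3b, DESeq2 1.12.4 and the build GRCm39 (mm39); strand handling is not given in the sources used here. The deposited values appear to be estimated counts, and they were rounded to whole numbers here before use. Among the rounded values, 3302 equal 2 and 857 equal 1. These tallies do not show whether the authors had rounded them.

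A single edgeR 4.0.16 model (R 4.3.3) with TMM scaling, a mean for each genotype and no replicate block gave all contrasts by the robust quasi-likelihood test. Its expression filter (count 10, total 15) kept 13332 genes, over which Benjamini-Hochberg adjustment ran. The SE is the absolute log2 fold change over the square root of F. A floor of 3 counts per library covers counting error only. Transcript lengths and exon overlaps are from GENCODE M21 on GRCm38, an older build, in which all 37 members matched by ID. In simulated data for Xap5 KO against WT (13332 genes), 67 genes were changed 1.5-fold, 67 were changed 2-fold and 66 were changed 4-fold. Of these, 64.2%, 77.6% and 92.4% were recovered, with 10 calls among unchanged genes. Far fewer genes were changed there than the 45.5% called in the data, so these shares do not give the recovery in the data.

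Library values follow a rule for the 14 members with the largest called change against WT and the leading member of each class, and for Itga8, added after its values were seen. The counts of Itgae in each library are also given, outside this rule. The values of 1 tested member are not reported here. At most 4 called genes per list are named. The members and lists were chosen with earlier results of these data known. Alternatives were DESeq2 1.42.0, scaling by library totals, other filters, fits of 2 groups, a replicate block, a 2-fold minimum and leaving out each library. The labels do not say that replicate numbers mark a batch, so numbers were not taken as pairs. Deviations from the group mean correlated at -0.13 to 0.13 over 15 same-numbered pairs of libraries from different groups. Over 30 differently numbered pairs they correlated at -0.22 to 0.28. With 2 WT libraries, the WT deviations mirror each other, so pairs with WT cannot show pairing.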

Additional observations from a re-analysis of the deposited data

Results flagged for a closer look

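For 12 members, a pair of knockouts was called in opposite directions against WT, and the direct contrast between these knockouts was called too. Calls in opposite directions in a pair of knockouts made up 41.4% of the tested members and 14.8% of all tested genes. All values below are log2 differences between the knockouts from edgeR's quasi-likelihood test. Xap5 KO was lower than Nono KO for Itga11 (-2.65), Itga8 (-1.44), Itga2b (-1.39), Itgb1 (-0.72) and Itgav (-0.39). Xap5 KO was lower than Sox5 KO for Itga11 (-2.60), Itgb2 (-1.94), Itga5 (-0.69) and Itgav (-0.58), and higher for Itgb8 (2.31), Itgb5 (1.83) and Lamb1 (0.33). Nono KO was higher than Sox5 KO for Lama5 (3.37), Itgb8 (3.30), Itga9 (2.75), Itgb5 (2.23) and Lamb1 (0.77). Some of the calls against WT behind these pairs were lost with 1 library left out, as given above for Itga11, Itga2b, Itgav and Lamb1 in Xap5 KO, Itgav and Lama5 in Nono KO, and Itga5, Itgb2 and Lamb1 in Sox5 KO.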

How the results depend on the processing

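Over the log2 fold changes of the 29 members in 6 comparisons, 2756 alternative values kept their direction and side of the threshold, 97 were no longer called, 41 became called and 1 reversed, with direction read only where a value was called. The reversed value is Itga2 in Xap5 KO against Sox5 KO, which ranged from -5.16 to 0 with 1 library left out and was 0 without Sox5 KO replicate 3. With a 2-fold minimum, calls over all 13332 tested genes against WT were 1491 (11.2%) in Nono KO, 2289 (17.2%) in Sox5 KO and 1370 (10.3%) in Xap5 KO, and between knockouts 1474 (11.1%) for Xap5 KO against Nono KO, 1995 (15%) for Xap5 KO against Sox5 KO and 2269 (17%) for Nono KO against Sox5 KO. The members then counted 2 higher and 3 lower in Xap5 KO, 10 and 2 in Nono KO, 4 and 6 in Sox5 KO, 0 and 10 in Xap5 KO against Nono KO, 7 and 3 in Xap5 KO against Sox5 KO, and 9 and 1 in Nono KO against Sox5 KO. The lists then held 1 adaptor or kinase, 7 ligands and 1 associated protein with 6 basement membrane partners in Xap5 KO, 3, 8 and 1 with 6 in Nono KO, and 2, 7 and 3 with 6 in Sox5 KO. Members lower in Nono KO numbered 3 with at least 10 counts in every library and 2 to 5 with 1 library left out. Members higher in Xap5 KO than in Nono KO numbered 5 under scaling by library totals and 2 to 4 with 1 library left out.

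Scaling by library totals shifted the median over all tested genes by -0.16 (Nono KO) and -0.11 (Sox5 KO) against WT and by 0.11 in Xap5 KO against Nono KO. It moved the split of higher and lower calls from 3134 and 3342 to 2157 and 4988 in Nono KO, and from 3613 and 3458 to 4721 and 2624 in Xap5 KO against Nono KO. With the replicate number as a block, Itga2b in Xap5 KO against WT was no longer called (-0.46, adjusted p = 0.0535). Between knockouts the block ended the calls of Itga10 in both contrasts of Nono KO and of Itgae in Xap5 KO against Nono KO, and added Itgb3 in Xap5 KO against Nono KO and Itgb2 in Nono KO against Sox5 KO. The members called higher in Xap5 KO than in Nono KO went from 2 to 3. The cause of these changes was not tested. With 2 WT libraries, precision against WT is limited, and for members with few counts, such as Itga2, Itgae, Lama3 and Lamb3, a difference may not be detectable at this depth.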
